A study of Pimephales promelas with 26 samples.

Results

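The 150 messenger RNA transcripts described here were those whose lowest library of larvae exposed to 47.2 µg/L fluoxetine stood furthest above the highest mean of the other groups. The members were chosen by their levels, in counts-per-million of a library's estimated counts (CPM), taken as log2(CPM + 1). For each of the 15084 predicted messenger RNA models with a mean of at least 10 CPM over 26 libraries, the gap was the lowest of the 3 libraries at 47.2 µg/L minus the highest mean of the other 5 groups. The 150 largest gaps were taken, leaving out 10 transcripts by name, most of them lysosomal, of which ctsla, lamp1a and cd63 would otherwise have ranked among the first 150. The table held 57299 transcripts in all, and 48442 were messenger RNA models. Because these values chose the members, their levels at 47.2 µg/L are a description. Members called in that contrast are counted beside the share of all transcripts called, and nothing is read from them.

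The libraries hold poly(A)-selected RNA of whole fathead minnow larvae (Pimephales promelas, a North American cyprinid of ecotoxicology laboratories). The animals were kept from 6 h to 7 days of age in water carrying fluoxetine, which is prescribed against depression and blocks serotonin uptake, and 20 larvae were pooled for each library. Groups were named by measured concentration, with 5 libraries of water without fluoxetine, 3 each of 0.19 and 47.2 µg/L, and 5 each of 0.74, 3.38 and 10.2 µg/L. The replicates of a group carry letters from A, and values of a group are given in the order of those letters. Every one of the 22 skeletal muscle, 27 hepatocyte and 21 epidermal marker symbols in the table had counts at 47.2 µg/L and in water. A pool of whole larvae mixes all tissues, so more cells of a type and more RNA per cell cannot be told apart, and p-values measure only the spread between such pools.

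Totals ran from 13515478 to 27614956 estimated counts per library, so that 3 counts were worth 0.109 to 0.222 CPM. Of the 150 members, 148 had a count above 0 in all 26 libraries. The reference gene table paired 118 members with a gene, 109 of them with a symbol and 9 with a locus number only, and left 32 unpaired. The 118 genes were all different.

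Fluoxetine is a cationic amphiphilic drug, a class known to collect inside lysosomes, the acidic compartments where cells break down protein, glycan and lipid. Animals also answer a chemical load through wider programmes that are well described in fish and mammals, among them the glucocorticoid stress axis, the unfolded protein response of the endoplasmic reticulum, lipid storage and remodelling of the extracellular matrix. Members with a known role are therefore given by role, starting with the matrix and ending with signalling.

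Gaps ran from 0.75 log2 units for thbs1a to 0.17 for ap3d1, with a median of 0.22. Of all 15084 models, 894 had a gap above 0. The last members inside were tnfrsf1a at 0.1676, an unpaired transcript (XM_039684712.1) at 0.1676 and ap3d1 at 0.1674, and the first model outside was tp53i11a at 0.1672, so nothing but the count of 150 separates them.

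The mean CPM at 47.2 µg/L over that in water ranged from 0.979 for camk2g1 to 3.56 for thbs1a, with a median of 1.41. It was at least 2-fold for 15 members, at least 1.5-fold for 48 (against 3.34% of all models past the floor) and under 1.1-fold for 3, namely camk2g1, qkia and an unpaired transcript (XM_039658590.1). All 3 libraries at 47.2 µg/L lay above all 5 water libraries for 97 members, against 4.56% of all models past the floor. They lay above all 23 other libraries for 30 members, against 0.371% of all models, and both counts are bound up with the rule. The lowest library at 47.2 µg/L exceeded a median of 21 of the 23 others, and fewer than 15 for 5 members, camk2g1, tnika, grin2ba and 2 unpaired transcripts. The counts are of single transcripts, and 9 members had a library with less than 1 count.

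The members did not stand equally high in the 3 libraries. Their median log2 difference from the water mean was 0.58, 0.44 and 0.47 in replicates A, B and C at 47.2 µg/L, while the other 23 libraries lay between -0.19 and 0.15. Over all 15084 models the same median lay between -0.05 and 0.05 in every library. Replicate A was the highest of the 3 for 81 members (54.0%), replicate B for 33 and replicate C for 36, against 39.96%, 28.58% and 31.46% of all models. The libraries at 47.2 µg/L did not overlap the others on this median, which the rule itself fixes.

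**Figure D1:**
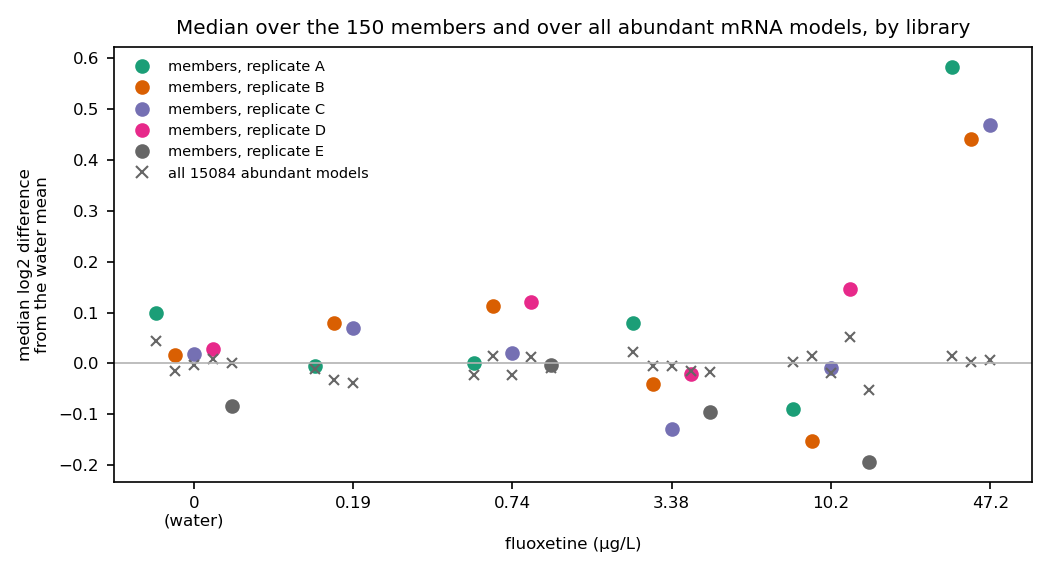
Median log2(CPM + 1) difference from the water mean in each of the 26 libraries, by measured fluoxetine concentration (µg/L). Circles are medians over the 150 members coloured by replicate letter, and crosses are medians over all 15084 models past the CPM floor. The members sit between 0.44 and 0.58 at 47.2 µg/L, with replicate A highest, and between -0.19 and 0.15 elsewhere, while the crosses stay within 0.05 of 0.

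The group that came closest to 47.2 µg/L was water for 35 members, 0.19 µg/L for 45, 0.74 µg/L for 44, 3.38 µg/L for 12 and 10.2 µg/L for 14. Over all models these shares were 14.73%, 21.67%, 21.76%, 17.64% and 24.20%. The difference from those shares was not tested.

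Among extracellular proteins, thbs1a (XM_039669396.1), which encodes thrombospondin, a matrix glycoprotein released at wounds, had the largest gap of all. It measured 131, 61.6 and 82.5 CPM at 47.2 µg/L, against 19.6, 29.98, 40.9, 21.3 and 17.2 CPM in water. At the concentrations between, it measured 43.3, 19.97 and 36.1 CPM at 0.19 µg/L, 22.6, 52.1, 47.6, 39.1 and 28.4 CPM at 0.74 µg/L, 35.8, 32.5, 7.67, 26.8 and 15.2 CPM at 3.38 µg/L and 14.01, 17.6, 20.9, 25.6 and 11.4 CPM at 10.2 µg/L. The 3 libraries at 47.2 µg/L were above every other one, and replicate A was the highest of them.

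The means were 91.8 ± 35.7 CPM at 47.2 µg/L and 25.8 ± 9.71 CPM in water (SD, n = 3 and 5), a 3.56-fold difference, or 1.83 ± 0.40 on the log2 scale by edgeR (SE). Without replicate A the ratio was 2.79. The lowest group mean was at 10.2 µg/L, at 17.9 ± 5.61 CPM (SD, n = 5).

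The small leucine-rich matrix proteoglycan prelp (XM_039673742.1) measured 44.7, 30.2 and 31.8 CPM at 47.2 µg/L, against 18.8, 18.5, 15.9, 12.97 and 13.1 CPM in water, a 2.24-fold difference of means. The 18 libraries at the concentrations between ran from 12.5 to 29.1 CPM (median 20.3), all below the lowest at 47.2 µg/L. The coagulation inhibitor tfpia (XM_039647235.1) measured 17.3, 28.1 and 16.4 CPM at 47.2 µg/L, against 13.1, 12.3, 13.8, 7.77 and 9.46 CPM in water. It was uneven elsewhere, with 2.41, 24.9 and 15.9 CPM at 0.19 µg/L, 14.04, 12.9, 11.5, 12.2 and 6.05 CPM at 0.74 µg/L, 13.5, 6.01, 8.41, 9.90 and 6.64 CPM at 3.38 µg/L and 12.6, 3.88, 17.2, 12.4 and 18.7 CPM at 10.2 µg/L, so that 3 of the 23 other libraries lay above the lowest at 47.2 µg/L.

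The remaining members of this role were ccn2b, a matricellular growth factor, tgm2b, a protein cross-linking transglutaminase, and adamts1, a matrix protease. Their folds of mean CPM over water were 1.32, 1.55 and 1.58. Replicate C was the highest of the 3 for tgm2b and adamts1, and without replicate A their folds were 1.63 and 1.73.

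**Figure D2:**
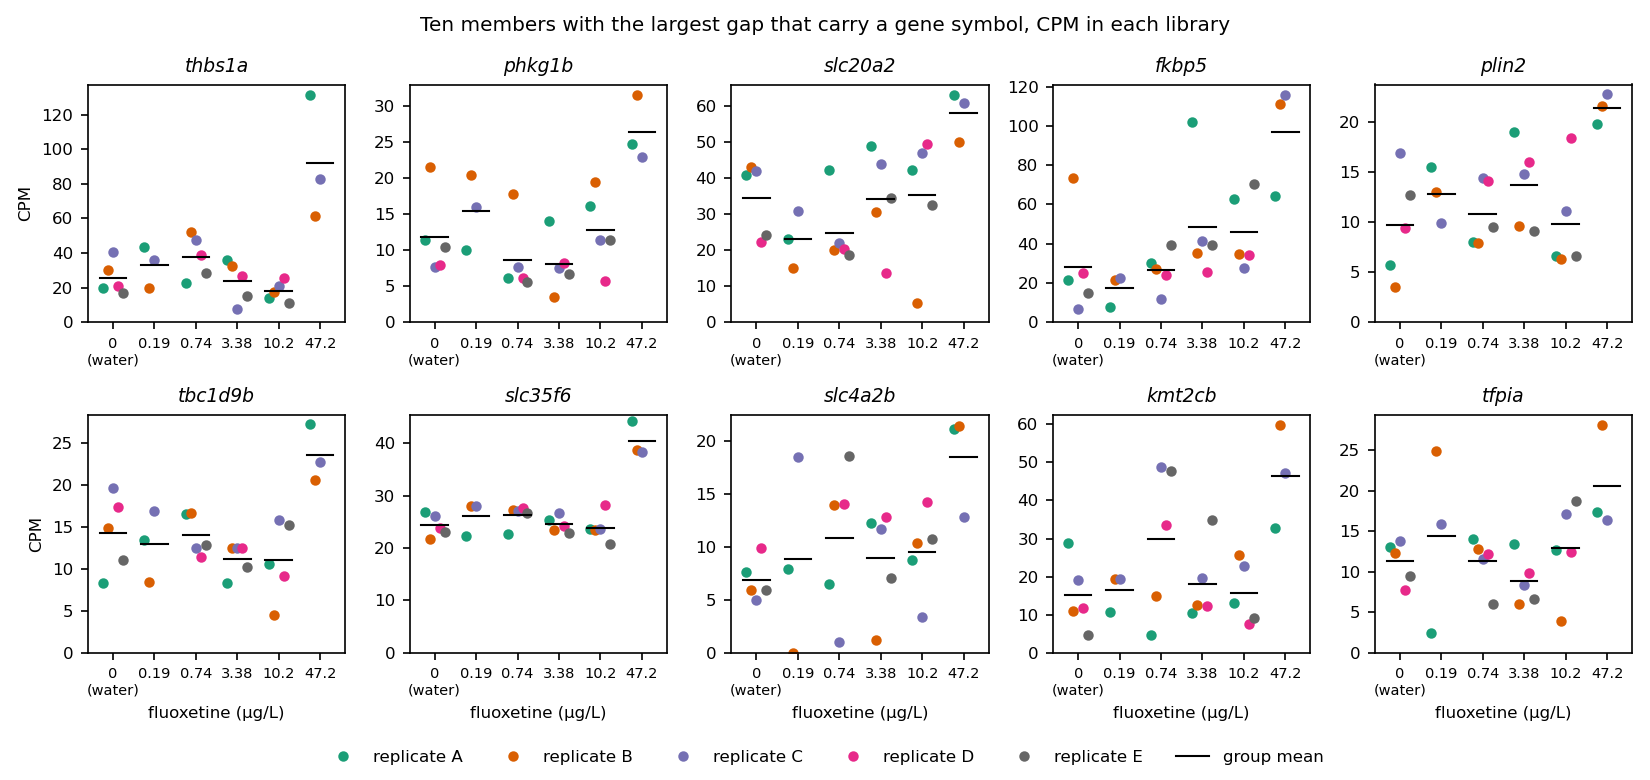
CPM of the 10 members with the largest gaps that carry a gene symbol, in each of the 26 libraries, by measured fluoxetine concentration (µg/L). Points are libraries coloured by replicate letter and lines are group means. In thbs1a, phkg1b, slc20a2, plin2, tbc1d9b and slc35f6 the 3 libraries at 47.2 µg/L sit above all others, while in fkbp5, slc4a2b, kmt2cb and tfpia single libraries of other groups reach among them.

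Of 2 members known to respond to glucocorticoid hormone, fkbp5 (XM_039689291.1) encodes a co-chaperone of the glucocorticoid receptor. It measured 64.2, 111 and 116 CPM at 47.2 µg/L, against 21.8, 73.7, 6.59, 24.9 and 15.2 CPM in water. Between these it measured 7.75, 21.6 and 22.4 CPM at 0.19 µg/L, 30.2, 27.1, 11.8, 23.9 and 39.3 CPM at 0.74 µg/L, 102, 35.095, 41.5, 25.4 and 39.5 CPM at 3.38 µg/L and 62.9, 34.6, 27.5, 34.05 and 70.158 CPM at 10.2 µg/L. Replicate B in water, replicate A at 3.38 µg/L and replicate E at 10.2 µg/L lay above the lowest library at 47.2 µg/L, so the groups overlapped.

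The fkbp5 means were 97.03 ± 28.5 CPM at 47.2 µg/L and 28.4 ± 26.2 CPM in water (SD, n = 3 and 5), a 3.41-fold difference, or 1.77 ± 0.56 log2 units (SE, edgeR). Unlike thbs1a, its ratio was higher without replicate A, at 3.99. The second such member, klf9 (XM_039670824.1), a Krüppel-like transcription factor, measured 134, 87.6 and 89.1 CPM at 47.2 µg/L, against 73.7, 82.6, 47.3, 59.3 and 50.5 CPM in water. The highest klf9 value of the series was 149.7 CPM, in replicate A at 3.38 µg/L, where fkbp5 also stood apart.

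Among membrane transporters, slc35f6 (XM_039692049.1), a member of a solute carrier family, had the smallest standard error of the 10 leading symbols. It measured 44.2, 38.6 and 38.2 CPM at 47.2 µg/L, against 26.9, 21.7, 26.1, 23.7 and 23.1 CPM in water. The other libraries held 22.2, 27.97 and 28.1 CPM at 0.19 µg/L, 22.6, 27.2, 27.03, 27.6 and 26.6 CPM at 0.74 µg/L, 25.4, 23.4, 26.7, 24.1 and 22.9 CPM at 3.38 µg/L and 23.6, 23.3, 23.6, 28.2 and 20.7 CPM at 10.2 µg/L, all below the lowest at 47.2 µg/L. The means were 40.4 ± 3.36 CPM at 47.2 µg/L and 24.3 ± 2.16 CPM in water (SD, n = 3 and 5), and the log2 difference was 0.74 ± 0.09 (SE, edgeR).

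The sodium-dependent phosphate transporter slc20a2 (XM_039680047.1) measured 63.1, 49.9 and 60.8 CPM at 47.2 µg/L, against 40.9, 43.2, 41.9, 22.3 and 24.1 CPM in water. It was spread widely in between, with 23.02, 15.2 and 30.9 CPM at 0.19 µg/L, 42.2, 20.1, 21.99, 20.4 and 18.6 CPM at 0.74 µg/L, 48.9, 30.6, 43.8, 13.6 and 34.6 CPM at 3.38 µg/L and 42.1, 5.24, 46.9, 49.6 and 32.4 CPM at 10.2 µg/L. No other library reached the lowest at 47.2 µg/L, though 1 at 10.2 µg/L lay just under it. This transcript carried 29.02% of the counts of its gene, which had 5 transcripts in the table, and the counts summed over the gene differed by 0.22 log2 units against 0.75 for the transcript.

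The anion exchanger slc4a2b (XM_039684728.1) measured 21.1, 21.4 and 12.8 CPM at 47.2 µg/L, against 7.59, 5.95, 4.98, 9.86 and 5.92 CPM in water. Its other libraries ran from 0.00841 CPM, in replicate B at 0.19 µg/L, to 18.6 CPM, in replicate E at 0.74 µg/L, so that only 17 of the 23 lay below the lowest at 47.2 µg/L. The gene had 4 transcripts, and the transcript's 1.44 ± 0.84 log2 units (SE) stood beside 0.08 for the gene sum. The other transporters in this role were slc20a1a, another phosphate transporter, and the zinc transporters slc30a4 and slc39a1, with folds of 1.36, 1.63 and 1.24. For slc30a4 the fold was 1.27 without replicate A.

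Lipid and energy genes included plin2 (XM_039671075.1), which encodes a protein coating lipid droplets. It measured 19.8, 21.6 and 22.8 CPM at 47.2 µg/L, against 5.73, 3.55, 16.9, 9.38 and 12.7 CPM in water. At the other concentrations it measured 15.5, 12.9 and 9.89 CPM at 0.19 µg/L, 7.98, 7.94, 14.3, 14.1 and 9.51 CPM at 0.74 µg/L, 18.98, 9.57, 14.8, 15.98 and 9.13 CPM at 3.38 µg/L and 6.64, 6.31, 11.1, 18.4 and 6.59 CPM at 10.2 µg/L. The 3 libraries at 47.2 µg/L were close together and above all 23 others, with means of 21.4 ± 1.51 CPM at 47.2 µg/L and 9.66 ± 5.36 CPM in water (SD, n = 3 and 5) and a difference of 1.15 ± 0.39 log2 units (SE, edgeR).

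For phkg1b (XM_039693902.1), the catalytic subunit of the kinase that turns on glycogen breakdown, the values were 24.8, 31.5 and 22.9 CPM at 47.2 µg/L, against 11.5, 21.5, 7.73, 7.97 and 10.4 CPM in water. Elsewhere phkg1b measured 10.02, 20.3 and 16.01 CPM at 0.19 µg/L, 6.18, 17.7, 7.67, 6.15 and 5.53 CPM at 0.74 µg/L, 14.04, 3.56, 7.47, 8.28 and 6.74 CPM at 3.38 µg/L and 16.1, 19.4, 11.4, 5.76 and 11.4 CPM at 10.2 µg/L. Water replicate B lay just under the lowest library at 47.2 µg/L. The transcript gave 1.17 ± 0.43 log2 units (SE), and the sum over its 2 transcripts 0.45.

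The endothelial lipase gene lipg measured 21.9, 22.97 and 29.00 CPM at 47.2 µg/L, against 18.2, 14.8, 20.00, 15.2 and 15.5 CPM in water. The gene pnpla3, which encodes a lipase of lipid droplets, measured 51.4, 41.03 and 50.97 CPM at 47.2 µg/L, against 28.99, 39.2, 22.7, 24.1 and 21.3 CPM in water. Folds of mean CPM were 1.47 for lipg and 1.75 for pnpla3. The remaining members of this role were the lipoprotein receptor ldlrb, the phospholipase pla2g4aa, the mitochondrial carrier ucp2 and the hexokinase hk2, with folds from 1.25 to 1.37. Enzymes that act on signalling lipids also ranked among the leading members. The steroid reductase srd5a2a measured 35.3, 36.95 and 38.7 CPM at 47.2 µg/L, against 22.9, 35.107, 17.97, 25.7 and 23.5 CPM in water. The enzyme cyp26a1, which degrades retinoic acid, measured 26.7, 22.5 and 27.1 CPM at 47.2 µg/L, against 17.2, 16.01, 15.1, 19.1 and 15.8 CPM in water. For srd5a2a the lowest library at 47.2 µg/L was above all others, and for cyp26a1 35.6 CPM was reached at a lower concentration.

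The 15 members placed in lysosomes and endosomes had folds of mean CPM over water from 1.19 to 1.71 and a median of 1.41. Replicate A was the highest of the 3 libraries at 47.2 µg/L for 12 of them, replicate B for 3 and replicate C for 0. Their median log2 differences from water were 0.66, 0.35 and 0.34 in replicates A, B and C at 47.2 µg/L. Leaving replicate A out, the 15 folds ran from 1.19 to 1.40.

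Of the soluble lysosomal proteins, npc2.1, which binds cholesterol, measured 86.5, 72.8 and 74.4 CPM at 47.2 µg/L, against 56.6, 49.9, 50.5, 62.04 and 53.3 CPM in water. The protective protein ctsa, a carboxypeptidase, measured 91.8, 71.6 and 80.97 CPM at 47.2 µg/L, against 57.3, 52.2, 53.6, 66.1 and 43.7 CPM in water. For both, the 3 libraries at 47.2 µg/L lay above all 23 others. The protease cathepsin B gene ctsba measured 278, 153 and 169.9 CPM at 47.2 µg/L, against 146, 104, 121, 125 and 90.1 CPM in water, with replicate A well above the other 2 and replicates B and C close to the highest water library. In transcripts-per-million (TPM), which allow for transcript length, ctsba was the most abundant member at 47.2 µg/L, with means of 225 TPM at 47.2 µg/L and 128 TPM in water.

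Of the membrane proteins, lamp2 had narrow ranges, with 53.3, 56.7 and 52.7 CPM at 47.2 µg/L, against 46.2, 47.2, 46.3, 44.7 and 42.6 CPM in water. It was one of 3 transcripts, and 0.27 log2 units for the transcript stood beside 0.07 for the gene. The proton pump subunit atp6v1h measured 35.01, 36.2 and 31.6 CPM at 47.2 µg/L, against 26.03, 23.00, 17.1, 30.6 and 27.3 CPM in water, and its gene sum differed by 0.05 against 0.48 for the transcript. The pump subunit atp6v1e1a, in which the 3 libraries at 47.2 µg/L lay above all others, had a fold of 1.23.

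The scaffold protein vac14, part of the complex that makes a phosphoinositide of late endosomes, measured 49.6, 34.3 and 37.98 CPM at 47.2 µg/L, against 30.6, 25.9, 23.9, 26.2 and 22.2 CPM in water. The autophagy receptor optn measured 68.3, 42.9 and 43.6 CPM at 47.2 µg/L, against 41.6, 34.4, 35.8, 32.5 and 30.7 CPM in water. The retromer-associated sorting nexin snx6 measured 44.7, 46.5 and 46.2 CPM at 47.2 µg/L, against 34.8, 36.5, 34.6, 37.9 and 38.1 CPM in water. For all 3 genes every library at 47.2 µg/L was above the other 23. The glycan-degrading enzymes galns and man2b2, the sorting proteins vps4b and ap3d1, the membrane protein cd164 and the lysosomal signalling protein flcn completed this role. Their folds ran from 1.26 to 1.55.

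**Figure D3:**
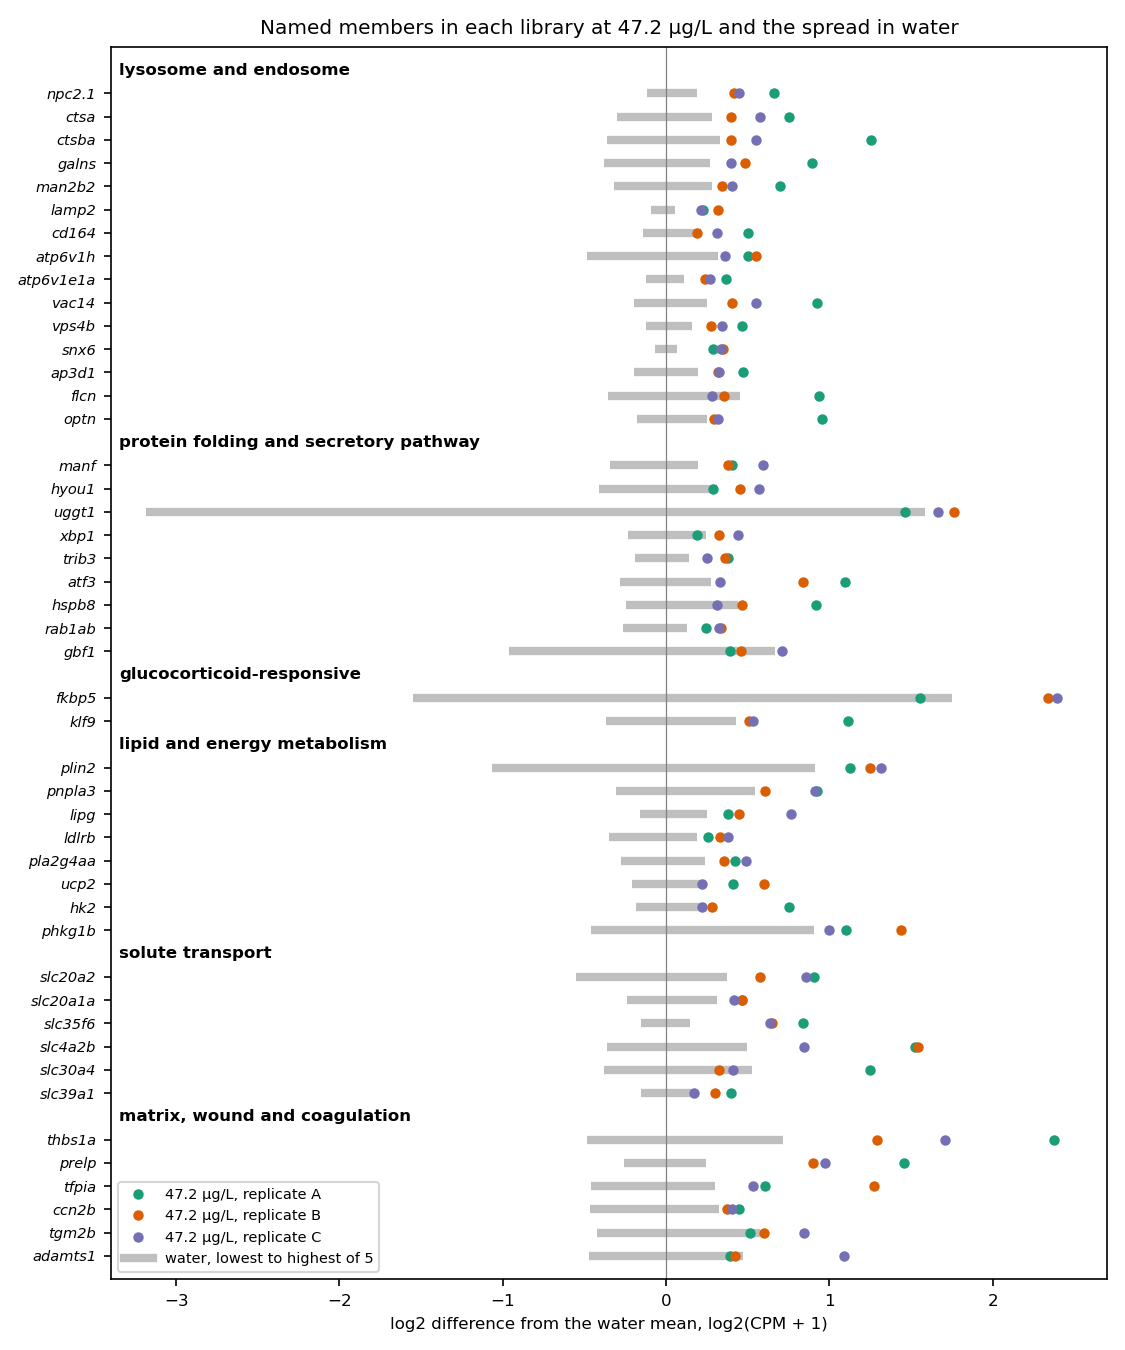
Log2(CPM + 1) difference from the water mean for the 46 members given by role, in replicates A, B and C at 47.2 µg/L (coloured points). Grey bars run from the lowest to the highest of the 5 water libraries. Replicate A is the highest point for 12 of 15 lysosomal and endosomal members, while for uggt1, fkbp5 and gbf1, among others, points fall inside the grey bar.

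The 9 members of protein folding and the secretory pathway had folds from 1.23 to 2.11 with a median of 1.35, and replicate C was the highest library for 4 of them, replicate A for 3 and replicate B for 2. The secreted factor manf, which is induced by stress of the endoplasmic reticulum, measured 20.8, 20.5 and 23.9 CPM at 47.2 µg/L, against 11.97, 14.1, 17.4, 16.8 and 17.9 CPM in water. The transcription factor atf3 measured 26.97, 22.3 and 15.4 CPM at 47.2 µg/L, against 12.5, 9.73, 13.8, 10.3 and 14.8 CPM in water, and its lowest library at 47.2 µg/L was close to the highest in water. The pseudokinase trib3 measured 52.3, 51.6 and 47.9 CPM at 47.2 µg/L, against 44.2, 40.7, 43.98, 37.2 and 34.97 CPM in water. The transcription factor xbp1, which drives much of the unfolded protein response, measured 135, 149 and 161 CPM at 47.2 µg/L, against 101, 107, 139, 111 and 141 CPM in water. For xbp1, replicate A at 47.2 µg/L fell within the range of water.

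The small heat shock protein gene hspb8 measured 60.3, 43.8 and 39.3 CPM at 47.2 µg/L, against 43.01, 29.3, 31.7, 26.3 and 29.2 CPM in water, with replicate C below the highest water library. For uggt1, an enzyme that tests glycoprotein folding, the values were 24.2, 29.98 and 27.9 CPM at 47.2 µg/L, against 0.00503, 18.7, 8.47, 26.4 and 11.3 CPM in water. A water library held less than 1 count and another exceeded the lowest at 47.2 µg/L, and the difference was 1.08 ± 1.04 log2 units (SE, edgeR). The chaperone hyou1 and the transport proteins rab1ab and gbf1 had folds of 1.35, 1.23 and 1.34.

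Signalling and chromatin members among the leading ranks were mostly single transcripts of genes with several. The histone methyltransferase transcript kmt2cb (XM_039677727.1) measured 32.6, 59.7 and 47.3 CPM at 47.2 µg/L, against 28.9, 10.99, 19.2, 11.8 and 4.76 CPM in water. At the concentrations between it measured 10.8, 19.5 and 19.2 CPM at 0.19 µg/L, 4.67, 14.8, 48.8, 33.7 and 47.7 CPM at 0.74 µg/L, 10.5, 12.6, 19.5, 12.3 and 34.8 CPM at 3.38 µg/L and 12.98, 25.6, 22.7, 7.49 and 9.09 CPM at 10.2 µg/L, and 4 of the 23 other libraries lay above the lowest at 47.2 µg/L. Its counts made up 33.1% of the gene's, and the log2 difference was 1.64 for the transcript and 0.27 for the gene sum. The Rab GTPase-activating protein tbc1d9b (XM_039655000.1) measured 27.2, 20.5 and 22.7 CPM at 47.2 µg/L, against 8.28, 14.8, 19.6, 17.3 and 10.98 CPM in water. In between it measured 13.4, 8.40 and 16.8 CPM at 0.19 µg/L, 16.5, 16.6, 12.5, 11.4 and 12.8 CPM at 0.74 µg/L, 8.25, 12.4, 12.5, 12.4 and 10.1 CPM at 3.38 µg/L and 10.6, 4.45, 15.8, 9.18 and 15.2 CPM at 10.2 µg/L. All 3 libraries at 47.2 µg/L exceeded the rest, yet the difference of 0.73 log2 units for the transcript stood beside 0.03 for the sum of its 2 transcripts.

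The kinases camk2g1 and tnika show how wide the other libraries of a member can be. The camk2g1 transcript, 1 of 12 of its gene, measured 13.7, 10.95 and 18.3 CPM at 47.2 µg/L, against 12.1, 27.6, 28.7, 4.60 and 0.0769 CPM in water, so its mean at 47.2 µg/L was no higher than in water. The tnika transcript, 1 of 6, measured 18.5, 14.3 and 23.2 CPM at 47.2 µg/L, against 9.85, 15.01, 17.5, 4.56 and 10.1 CPM in water. The kinase map2k4a measured 26.4, 22.4 and 25.2 CPM at 47.2 µg/L, against 20.00, 17.4, 23.3, 11.4 and 17.1 CPM in water, and the gene sum differed by 0.06 log2 units against 0.47 for the transcript.

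The deaminase gnpda2, an enzyme of amino sugar breakdown, measured 29.1, 27.8 and 34.6 CPM at 47.2 µg/L, against 21.1, 18.6, 22.3, 24.4 and 24.8 CPM in water. The gene hif1al measured 244, 223 and 224 CPM at 47.2 µg/L, against 197, 192, 162, 159.6 and 138 CPM in water. In both, every library at 47.2 µg/L was above all others. The survival factor mcl1b measured 187, 164 and 165 CPM at 47.2 µg/L, against 157, 172, 134, 134 and 119 CPM in water. The tumour necrosis factor receptor gene tnfrsf1a measured 63.6, 46.1 and 46.6 CPM at 47.2 µg/L, against 43.8, 43.3, 49.7, 40.7 and 29.8 CPM in water. For mcl1b and tnfrsf1a the groups overlapped. The granule proteoglycan gene srgn measured 14.6, 13.6 and 13.2 CPM at 47.2 µg/L, against 10.4, 11.9, 11.6, 10.3 and 10.2 CPM in water. The trypsin-like gene prss59 measured 30.97, 23.4 and 24.5 CPM at 47.2 µg/L, against 15.3, 16.5, 16.04, 16.2 and 15.2 CPM in water, with very little spread in water.

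By edgeR's quasi-likelihood test over all 43837 transcripts with Benjamini-Hochberg adjustment, 7 members passed an adjusted p of 0.05 at 47.2 µg/L against water, where 0.103% of all transcripts tested passed in either direction. They were slc35f6, vac14, prss59, prelp, snx6, sike1, a regulator of kinase signalling, and LOC120484668, for which the reference table gives no name. The rule used this contrast, so it favoured these calls and nothing is read from the count, here or with any other fit. LOC120484668 measured 138, 53.9 and 54.1 CPM at 47.2 µg/L, against 35.9, 23.5, 23.3, 27.6 and 20.6 CPM in water, so most of its mean came from replicate A. In the authors' deposited table, 38 members were higher at an adjusted p below 0.05 and 0 lower, where 1.18% of its 26962 transcripts were higher. Without replicate A at 47.2 µg/L, slc35f6 alone passed by edgeR. The share of all transcripts called in that fit is not given here, so the drop cannot be set against it. With edgeR on the 47.2 µg/L and water libraries alone 0 passed, as did 0% of all transcripts, with 105 higher at an unadjusted p below 0.05, where 3.89% of all transcripts were. DESeq2 on all libraries called 35 higher, where 0.639% of all transcripts were called higher.

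At the 4 lower concentrations no member passed by edgeR against water (adjusted p below 0.05), where the shares of all transcripts called were 0.0502% at 0.19 µg/L, 0.089% at 0.74 µg/L, 0% at 3.38 µg/L and 0% at 10.2 µg/L. DESeq2 called 2 members, prelp and sike1, both higher, at 0.19 µg/L, where it called 0.42% of all transcripts higher, and 0 at the other 3. The rule had required these group means to lie below the 47.2 µg/L libraries, so these tests are not independent of it. The authors' deposited tables called higher 2 members, prelp and sike1, at 0.19 µg/L, where 0.723% of transcripts were, and 0 at the other 3.

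At an unadjusted p below 0.05, 8 members were higher and 1 lower at 0.19 µg/L, where 6.32% and 5.95% of all models past the floor were. The counts were 6 higher and 1 lower at 0.74 µg/L (7.44% and 5.46% of models), 0 and 2 at 3.38 µg/L (1.58% and 3% of models), and 4 and 5 at 10.2 µg/L (3.63% and 3.37% of models). Single libraries moved these counts. Leaving out each library in turn gave 5 to 10 higher at 0.19 µg/L, 5 to 11 higher at 0.74 µg/L, 1 to 7 lower at 3.38 µg/L and 3 to 19 lower at 10.2 µg/L. The 11 came without water replicate A and the 7 without replicate A at 3.38 µg/L. The 19 (12.7%) came without replicate D at 10.2 µg/L, where 5.14% of all transcripts were lower. The share of models past the floor, to which all members belong, was not counted for that fit. In the main fit, 2.74% of all transcripts and 3.37% of models past the floor were lower at 10.2 µg/L. Nothing is read from the counts of members.

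The 2 lowest concentrations and the 2 above them lay on different sides of water, by little. The median log2 fold change of the 150 members was 0.07 at 0.19 µg/L, 0.05 at 0.74 µg/L, -0.03 at 3.38 µg/L and -0.06 at 10.2 µg/L. Over all models past the floor these medians were 0.01, 0.01, 0.01 and 0.00. With each library left out in turn the member medians kept their sign, at 0.05 to 0.11, 0.03 to 0.08, -0.07 to -0.03 and -0.10 to -0.04. The values farthest from 0 came without water replicate A, water replicate C, replicate A at 3.38 µg/L and replicate D at 10.2 µg/L. Those nearest to 0 came without replicate C at 0.19 µg/L, water replicate E, replicate C at 3.38 µg/L and replicate E at 10.2 µg/L. Scaled by library totals alone, the medians were 0.03, 0.02, -0.05 and -0.07. Fold changes were above 0 for 66.0%, 61.3%, 37.3% and 37.3% of members, against 51.1%, 52.9%, 51.6% and 50.3% of models. All 4 comparisons share the same 5 water libraries, and the difference between them was not tested. The rule used the means of water and of these 4 groups, so these member values are not independent of it. With a library left out the 150 members stayed the same, so the kept signs are no independent measure. Libraries at 0.19 and 0.74 µg/L had longer fragments, 248.2 to 263.1 bp, than those at 3.38 and 10.2 µg/L, 222.3 to 246.5 bp, with 228.1 to 247.2 bp at 47.2 µg/L and 235.2 to 239.6 bp in water. A fit that included fragment length gave member medians of 0.03, 0.03, -0.04 and -0.05.

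**Figure D4:**
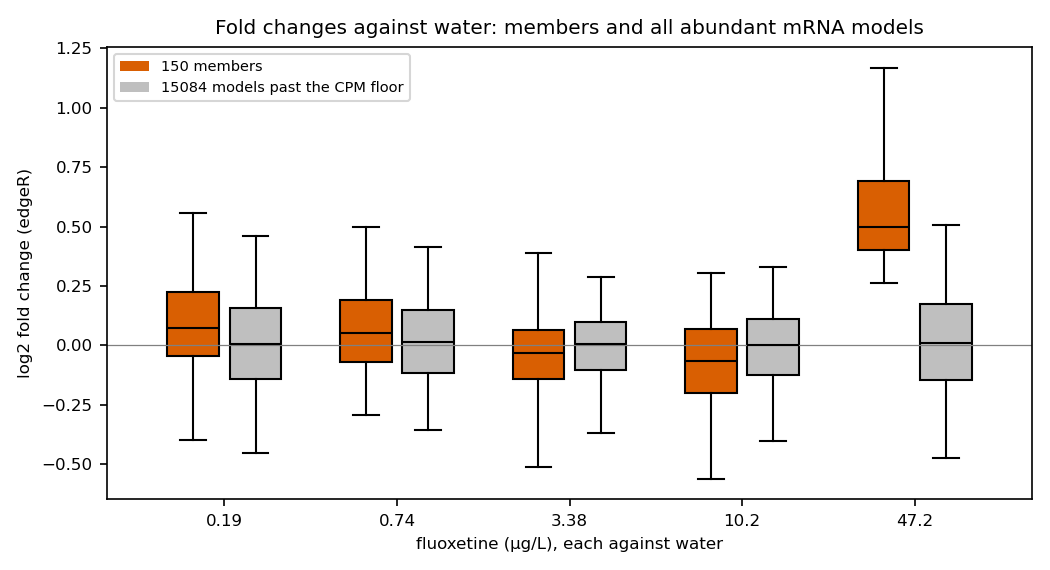
Log2 fold change against water by edgeR at each fluoxetine concentration (µg/L) for the 150 members (orange, left of each pair) and all 15084 models past the CPM floor (grey). Boxes span the quartiles with the median as a line, and whiskers run from the 5th to the 95th percentile. The member median is 0.07 at 0.19 µg/L, -0.06 at 10.2 µg/L and 0.50 at 47.2 µg/L, where the rule chose the members.

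Members with the smallest p at the lower concentrations were chosen after their values were seen. The proteoglycan prelp differed by 0.76 ± 0.18 log2 units (SE) at 0.19 µg/L (edgeR adjusted p = 0.171) and 0.53 ± 0.16 at 0.74 µg/L (adjusted p = 0.325). For sike1 the differences were 0.38 ± 0.10 and 0.31 ± 0.09 (edgeR adjusted p = 0.236 and 0.293). For prss59 they were 0.32 ± 0.13 and 0.30 ± 0.11 (edgeR adjusted p = 0.492 and 0.450). None passed the adjusted threshold, and at 3.38 and 10.2 µg/L the same 3 lay between -0.05 and 0.11.

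On a slope from water to 10.2 µg/L over log2 of the concentration, 0 members passed by edgeR, as did 0% of all transcripts, and DESeq2 called 0. At an unadjusted p below 0.05, 3 members had a positive slope and 14 a negative one, where 8.16% and 9.51% of models did. Over all transcripts tested the shares were 4.55% positive and 5.44% negative. With fragment length in the fit the counts were 4 and 5, where 2.26% and 2.33% of all transcripts were. Without replicate A, B or E at 10.2 µg/L the negative slopes numbered 9, 9 and 8. The shares of all transcripts with a negative slope were then 3.82%, 3.49% and 3.69%, and nothing is read from these counts. The 3 with a positive slope in the main fit were fkbp5, pnpla3 and bco2l, a carotenoid-cleaving oxygenase. Their slopes were 0.15, 0.07 and 0.05 log2 units per unit of log2(concentration + 0.1 µg/L) (edgeR adjusted p = 0.468, 0.434 and 0.441). Among the 14 were ctsba at -0.07 and hk2 at -0.11 (edgeR adjusted p = 0.424 and 0.424).

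The values of single transcripts depend on how reads were divided among the transcripts of a gene. Of the 118 members with a gene, 60 were its only transcript in the table and 58 had others. For the 60, the median log2 difference at 47.2 µg/L was 0.53 by transcript and by gene. For the 58, it was 0.48 by transcript and 0.23 for the counts summed over the gene, with sums from -0.31 to 1.53. In 32 of the 58 the gene sum differed by less than 0.5 of what the transcript did, and in 7 it lay below 0.

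Of the 10 leading symbols, 7 belonged to genes with several transcripts. For fkbp5 and tfpia the gene sums, 1.53 and 0.72 log2 units, stayed near the transcripts' 1.77 and 0.88. For phkg1b, slc20a2, slc4a2b, kmt2cb and tbc1d9b they were below 0.5 of them. When the rule was applied to counts summed per gene, 104 of the 150 were chosen again. They were 92 of the 92 members alone in their gene or unpaired and 12 of the 58 others. For the 92 the sum is the transcript itself, so their return was all but fixed in advance.

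**Figure D5:**
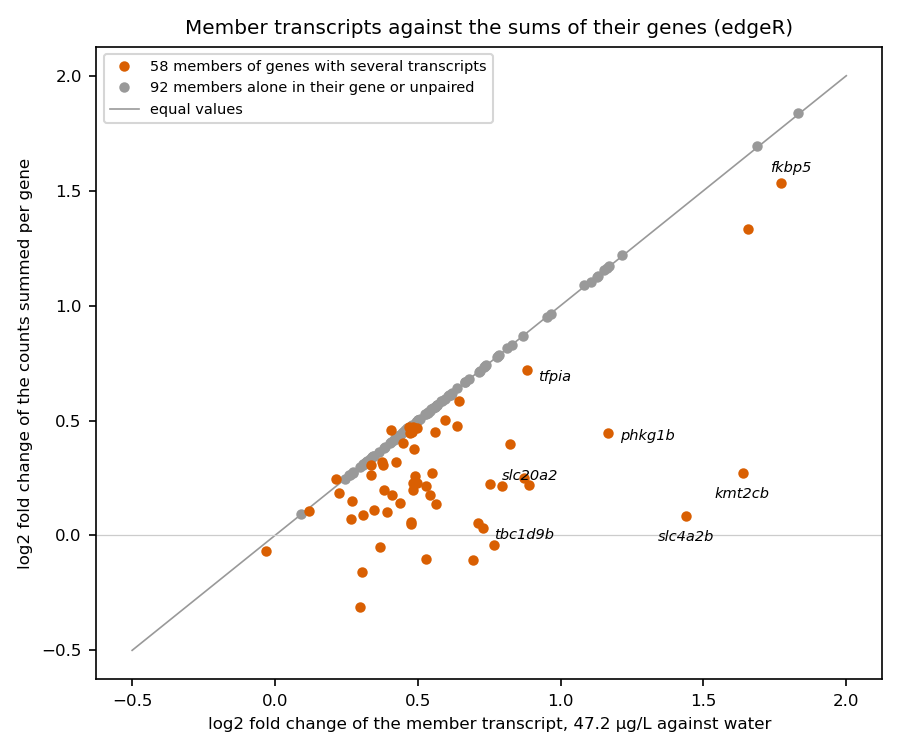
Log2 fold change at 47.2 µg/L against water by edgeR of each of the 150 member transcripts (horizontal) and of the counts summed over its gene (vertical). Orange points are the 58 members of genes with several transcripts in the table, grey points the 92 alone in their gene or without one, and the line marks equal values. Most orange points lie below the line, with slc4a2b, kmt2cb, phkg1b, slc20a2 and tbc1d9b far under it and fkbp5 and tfpia near it.

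No other transcript of these 58 genes was called higher at 47.2 µg/L. Of 114 tested, edgeR called 0 against water, where 0.103% of all transcripts passed. At an unadjusted p below 0.05, 5 were higher and 8 lower, where 4.73% and 4.62% of all transcripts were. DESeq2 called 3, single transcripts of dmxl1, rai14 and snrkb, all lower and all with a mean under the 10 CPM floor. The share of all transcripts that DESeq2 called lower is not given here, and nothing is read from these counts. The median log2 fold change of the 114 was -0.15 and 36.0% were above 0, against 49.7% of all transcripts tested. The 39 of them past the 10 CPM floor had a median of -0.07. These counts are divided from the same reads as the members' and are no independent measure.

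Of 25 gene lists for tissues, stress programmes and cell types, 11 held a member. In all, 19 members (12.7%) were on a list, against 4.24% of all models past the floor. Lists and members were chosen with earlier results of these data known. Nothing is therefore read from that share or from the counts and medians of the lists that follow. Among 104 lysosome and phospholipidosis transcripts tested at 47.2 µg/L against water, 2 passed higher by edgeR, ctsla and lgmn, and 0 lower, with 38 higher and 0 lower at an unadjusted p below 0.05 and a median of 0.26, or 0.23 for the 100 that are not members. Over all transcripts 4.73% were higher and 4.62% lower at that level, and over models past the floor 7.88% and 6.66%. Of the 104 transcripts, 70 were past the floor, and ctsla was among those left out of the members by name. Among 108 transcripts of cartilage, bone, collagen and matrix, mmp14b and prelp passed higher and 0 lower, with 27 higher and 0 lower at an unadjusted p below 0.05 and a median of 0.39, which was also 0.39 for the 106 that are not members. As a member prelp was chosen on this contrast. Of the 108 transcripts, 66 were past the floor. The summed CPM of this matrix list was no higher at 47.2 than at 0.19 µg/L by its median, at 9900.5 and 11682 CPM. It ran from 8301 to 12908 CPM at 47.2 µg/L, overlapping the 5514 to 10033 CPM of water. At 0.19 µg/L it ran from 10674 to 12562 CPM. Over all transcripts tested the median was 0.00, and over models past the floor 0.01.

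Among 52 transcripts of the unfolded protein and amino acid response, which includes manf, atf3, trib3 and xbp1, edgeR called 0, with 8 higher and 0 lower at an unadjusted p below 0.05 and a median of 0.15, or 0.11 for the 48 that are not members. Among 34 of the glucocorticoid and stress axis, with fkbp5 and klf9, it called 0, with 5 higher and 2 lower at that level. The median was 0.16, or 0.14 for the 32 that are not members. Among 42 of p53, DNA damage and apoptosis, with mcl1b and tnfrsf1a, it called 0, with 6 higher and 0 lower. Their median was 0.20, or 0.19 for the 40 that are not members. Among 35 autophagy transcripts, with optn, it called 0, with 4 higher and 0 lower. The median there was 0.13, also for the 34 that are not members. Among 30 of the exocrine pancreas and intestine, edgeR called 1 higher, the member prss59, and 3 lower, aqp8a.1, ggt1b and slc15a1a, with 2 higher and 8 lower at an unadjusted p below 0.05 and a median of 0.04. For the 29 that are not members the median was 0.00. Over all transcripts the shares at an unadjusted p below 0.05 were 4.73% higher and 4.62% lower, as above. The counts of every list at that level were taken with its members left in, which the rule chose on this contrast. Calls by DESeq2 were not counted per list.

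Replicate A, in which most members were highest at 47.2 µg/L, had the highest sum of the 3 on 10 of the 25 lists. Replicate B had it on 7 and replicate C on 8. Over all models past the floor, replicate A was the highest of the 3 for 39.96%. The lysosome list summed to 6853, 5222 and 5111 CPM in replicates A, B and C at 47.2 µg/L, against 3919 to 4718 CPM in water. The autophagy list summed to 2213, 1462 and 1373 CPM at 47.2 µg/L, against 1236 to 1745 CPM in water. That of the glucocorticoid and stress axis summed to 2913, 2093 and 2364 CPM, against 1862 to 2334 CPM in water. Lysosome-rich enterocyte uptake summed to 2290, 1655 and 1567 CPM at 47.2 µg/L, against 1433 to 1929 CPM in water. The exocrine pancreas and intestine list summed to 11702, 8453 and 9853 CPM, against 9040 to 10286 CPM in water. The part of these lists in the members' values was not tested. Macrophage and microglia markers, with 0 members and counts for 27 of 27 symbols, summed to 721, 934 and 1013 CPM at 47.2 µg/L, within 687 to 951 CPM in water but for replicate C. Neutrophil markers, with srgn as a member and counts for 11 of 11 symbols, summed to 152, 179 and 158 CPM at 47.2 µg/L, against 109 to 148 CPM in water, and the part of those cells in srgn was not tested. On 4 lists, each with a member, all 3 libraries at 47.2 µg/L lay above all 5 in water: lysosome, neutrophil, unfolded protein and heat shock. The unfolded protein and amino acid list summed to 2963, 2963 and 3046 CPM, against 2593 to 2835 CPM in water. Heat shock and protein folding summed to 6842, 6386 and 6280 CPM, against 5784 to 6222 CPM in water. At 0.19 µg/L the heat shock list also lay above all 5 water libraries, at 6300.7 to 6576.8 CPM. The part of these 4 lists in the members' values was not tested. On 2 lists, neither with a member, all 3 libraries at 47.2 µg/L lay below all 5 in water. Hepatocyte markers summed to 4193, 3606 and 4510 CPM at 47.2 µg/L, against 4561 to 5184 CPM in water, with counts for 27 of 27 symbols. Neuron and photoreceptor markers summed to 5473, 5759 and 5341 CPM at 47.2 µg/L, against 5994 to 7273 CPM in water, with counts for 41 of 42 symbols at 47.2 µg/L, stmn2b being at 0. At 0.19 µg/L the neuron and photoreceptor markers also lay below all 5 water libraries, at 5286.7 to 5784.5 CPM. By edgeR 0 transcripts of either list were called, with 1 higher and 8 lower of 30 hepatocyte transcripts and 1 higher and 11 lower of 61 neuron and photoreceptor transcripts at an unadjusted p below 0.05. The part of these tissues in the members' values was not tested. No transcript of 27 in the serotonin signalling list reached the 10 CPM floor, so none could be a member.

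The choice of members leaned on each library at 47.2 µg/L. Repeating the rule without replicate A, B or C there shared 47, 43 and 58 of the 150, and without any other single library 117 to 147. Across all 26 repeats 22 members were chosen every time. They were thbs1a, phkg1b, slc20a2, fkbp5, plin2, tbc1d9b, slc35f6, npc2.1, manf, ctsa, lipg, map2k4a, atf3, gnpda2, vac14, LOC120484668 and 6 unpaired transcripts. A gap set against the highest of the 23 other libraries in place of group means shared 59.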

How the data were processed

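RNA was measured in 26 libraries of pooled whole larvae. Per the labels' protocols, messenger RNA was enriched on poly(A) beads and the kit kept strand. Trimmomatic 0.38, kallisto and DESeq2 are named in the submitters' processing notes. The transcript index and build are not given in the sources used. Estimated counts per transcript from kallisto, jointly and per library, and TPM and transcript lengths were deposited by the authors. For each concentration against water they deposited a table holding, per the file headers, a mean of normalized counts (a signal), a log2 fold change, a test statistic (a score) and p-values.

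Members were ranked on log2(CPM + 1) from the deposited estimated counts, with CPM taken from column totals. The members and gene lists were chosen with earlier results of these data known. Genes came from a RefSeq listing of assembly fPimPro1.hap1.1. That build may differ from the authors', so no coordinates are given. A gene's number of transcripts counts those the listing pairs with it, and kallisto's division of reads among them makes single transcripts uncertain.

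Estimated counts were rounded and tested with edgeR 4.0.16 (R 4.3.3, limma 3.58.1), by a robust quasi-likelihood fit to all 26 libraries after filterByExpr, which kept 43837 transcripts and 99.9% of counts, and TMM scaling, with factors from 0.951 to 1.04. Two-sided p-values were adjusted by Benjamini and Hochberg's method over every transcript of a contrast, with a threshold of 0.05. The slope used log2(concentration + 0.1 µg/L) from water to 10.2 µg/L. Fragment length was the median difference between transcript length and effective length over transcripts of at least 3000 bases. DESeq2 1.42.0, a fit without the count filter, library totals, a replicate block, fragment length as a covariate, each group with water alone, sums per gene and each library left out were alternatives. The tests were tested on simulated data. Depth is given as total counts per library, and 3 counts in a library is the floor used for precision, which covers counting error only.

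Genes named are the 25 members with the largest gaps that carry a symbol, members on the lists, and those at the edge of the ranking. Other members given by role, or for a small p, were chosen after their values were seen.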

Additional observations from a re-analysis of the deposited data

Results flagged for a closer look

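For 26 members, each of the 4 groups of 5 libraries was searched for a library whose distance to its nearest neighbour, set against the whole range of its group, passed Dixon's 95% critical value. Of the 104 groups, 12 held such a library. The 1 in 20 behind that critical value holds for independent, normally distributed values. These groups are in CPM and share the same libraries, so the 12 cannot be set against it.

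Replicate A at 3.38 µg/L was the high library in 5 of the 12. There fkbp5 measured 102.1 CPM, against 25.39 to 41.5 CPM in the other 4 libraries of that concentration, and klf9 149.7 CPM, against 53.53 to 77.17 CPM. In the same library trib3 measured 60.13 CPM, against 30.52 to 35.09 CPM, mcl1b 195.7 CPM, against 110.3 to 124 CPM, and prelp 23.46 CPM, against 14.52 to 16.52 CPM. This library had the shortest fragments of all 26, at 222.3 bp, and the part of fragment length in these values was not tested.

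Among the other 7, phkg1b measured 21.45 CPM in water replicate B, against 7.73 to 11.46 CPM in the other water libraries, and 17.73 CPM in replicate B at 0.74 µg/L, against 5.531 to 7.67 CPM. In water replicate B, fkbp5 measured 73.65 CPM, against 6.589 to 24.87 CPM. In replicate A at 0.74 µg/L, slc20a2 measured 42.16 CPM, against 18.63 to 21.99 CPM, and slc35f6, the low one of the 12, 22.63 CPM, against 26.65 to 27.61 CPM. At 10.2 µg/L, atf3 measured 15.39 CPM in replicate D, against 7.512 to 9.018 CPM, and trib3 39.5 CPM in replicate A, against 33.7 to 34.83 CPM.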

How the results depend on the processing

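The calls of 0 members at 0.74, 3.38 and 10.2 µg/L and on the slope stood under every alternative run, and at 0.19 µg/L under all but DESeq2, which called 2. At 47.2 µg/L, where the rule chose the members, 7 were called, 6 with library totals, no count filter or fragment length as a covariate, 13 on gene sums, 35 with DESeq2 and 0 with water and 47.2 µg/L alone. Leaving out each library in turn gave 1 to 8, with 1 without replicate A at 47.2 µg/L and 4 without water replicate E. The shares of all transcripts called were 0.103% in the main fit, 0.639% higher with DESeq2 and 0% higher with water and 47.2 µg/L alone. For the other fits that share is not given here, so their counts of members cannot be set against it. The rule favoured the calls of members, and nothing is read from their number. Of the other transcripts of the members' genes, 0 were called, and 3 with DESeq2.

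The libraries share letters across groups. Of 57 pairs of groups' libraries with the same letter, 33 had deviations correlated above 0.1 and the lowest was -0.06. The median correlation was 0.14 for pairs with the same letter and -0.02 for pairs with different letters. Not every pair passed 0.1, so the main fit did not take the letters to pair the samples. Its p-values therefore do not allow for a likeness between libraries of the same letter. The part of a shared letter in the values of replicate A was not tested. On average 23 of 26 libraries correlated best with their own letter, a hint from the data and not from the design. With a replicate block 18 members were called at 47.2 µg/L and 0 at each lower concentration. At 10.2 µg/L, 14 were lower at an unadjusted p below 0.05 (9.33%, against 4.2% of all transcripts). The share of models past the CPM floor, to which all members belong, was not counted with the block. The block raised such shares over all transcripts too, at 10.2 µg/L from 2.74% to 4.2% lower. The share of all transcripts called at 47.2 µg/L with the block is not given here, and nothing is read from the 18.

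The choice of members depended on its settings. Of the 150, 83 were shared with a floor of 5 CPM, 76 with a floor of 20 CPM and 80 with TPM in place of CPM. With the gap set against the highest other library 59 were shared, and with the mean in place of the lowest of the 3 libraries 63. Counts summed per gene, an alternative chosen after seeing the data, shared 104. Of these, 92 were alone in their gene or unpaired, where the sum is the transcript itself, and 12 had other transcripts. With 1 library left out 43 to 147 were shared, with pseudocounts of 0.5 and 5 147 and 139, and with TMM-scaled totals 136. The number with a mean CPM at least 1.5 times that in water was 48, and 42 to 60 with 1 library left out, which was also added after seeing the data. The SE of a member's log2 fold change had a median of 0.23 at 0.19 and 47.2 µg/L, with 3 libraries each, and 0.20 at the concentrations with 5, and ran from 0.06 to 1.41, which limits what could be detected for the more variable members.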
